A study of Rattus norvegicus with 63 samples.

Results

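The genes described here are 10 well-known targets that glucocorticoid hormone induces: Tsc22d3, Fkbp5, Sgk1, Ddit4, Angptl4, Klf9, Klf15, Mt2A, Bcl6 and Zbtb16. Each was taken by its symbol, from the probe sets annotated to that symbol alone, and where a gene had several, the one brightest on average across the arrays stood for it. Of the 10 genes, 9 could be measured in this way, among 14218 genes named on the arrays, and all 9 passed the filter on low signal in both brain regions. Zbtb16 was not analysed here. Levels are log2 of the microarray signal, so 1 log2 unit is a 2-fold difference.

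The arrays came from the prefrontal cortex (PFC, 31 arrays) and from a striatal dissection of rostral caudate putamen with nucleus accumbens (32 arrays) of male Wistar rats, bought at 4 weeks of age and injected intraperitoneally from the age of 6 weeks, 2 times daily over 7 days. In the naive cohort those injections were saline for every rat. In the pretreated cohort they were amphetamine, methamphetamine or methylphenidate at 5 mg/kg, or saline in the controls. The rats were then trained for conditioned place preference and afterwards self-administered through an intravenous line, and brains were collected on the day following the final session. Naive rats were conditioned with amphetamine or methamphetamine at 1.25 or 5 mg/kg, with methylphenidate at 5 mg/kg or with saline, and pretreated rats with their stimulant at 5 mg/kg or with saline. An infusion delivered 0.1 mg/kg of amphetamine or methamphetamine, 0.25 mg of methylphenidate in 0.1 ml, or 0.1 ml of saline, so that the infused doses were not matched. Naive saline had 5 arrays per region and every other group 3, except methamphetamine 1.25 mg/kg in the PFC with 2. The labels mention pools, yet also rat numbers close to the array numbers, so the p-values below measure the spread between these arrays, whatever each array holds. RNA was taken from rats with robust self-administration, so the stimulant groups are a selected part of the animals trained.

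Glucocorticoids leave the adrenal cortex in a daily rhythm and in response to stress, and psychostimulants are themselves among the agents that raise them. In brain cells the hormone binds the glucocorticoid receptor (Nr3c1) and the mineralocorticoid receptor (Nr3c2), which move to the nucleus and bind response elements near or far from target genes. Among the targets are feedback regulators (Fkbp5, a co-chaperone that lowers the receptor's hormone affinity, and Tsc22d3, known as GILZ, an anti-inflammatory leucine zipper protein), kinase and growth signalling genes (Sgk1, a serum- and glucocorticoid-regulated kinase, and Ddit4, known as REDD1, an inhibitor of mTORC1), metabolic and metal-binding proteins (Angptl4, a secreted inhibitor of lipoprotein lipase, and Mt2A, a metallothionein), and transcription factors (Klf9, Klf15 and the repressor Bcl6). These genes answer to other signals too, such as fasting, hypoxia, metals or cAMP, and many are strongest in glia and vessels.

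The 250 bases before the start of 3 members are shown here because these genes carried the results below and differ in what the sequence holds. They are from RefSeq (GRCr8) and read 5′ to 3′ on the gene's strand, with the motif matches in capitals. The window of Mt2A is chr19:10838709-10838958, that of Sgk1 chr1:24804832-24805081 and that of Tsc22d3 chrX:109010035-109010284, each upstream of a gene on the minus strand. Sgk1 and Tsc22d3 each have 3 annotated starts, of which 1 is shown.
Mt2A: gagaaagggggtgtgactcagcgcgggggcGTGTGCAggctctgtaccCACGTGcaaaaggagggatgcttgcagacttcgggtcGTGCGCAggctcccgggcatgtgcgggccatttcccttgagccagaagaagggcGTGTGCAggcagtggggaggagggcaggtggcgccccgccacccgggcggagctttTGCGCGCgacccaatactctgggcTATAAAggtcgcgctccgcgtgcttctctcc
Sgk1: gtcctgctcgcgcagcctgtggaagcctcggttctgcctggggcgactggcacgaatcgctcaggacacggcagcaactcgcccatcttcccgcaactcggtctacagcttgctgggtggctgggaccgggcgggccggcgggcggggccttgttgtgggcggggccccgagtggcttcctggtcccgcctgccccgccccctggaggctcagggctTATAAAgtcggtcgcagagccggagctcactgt
Tsc22d3: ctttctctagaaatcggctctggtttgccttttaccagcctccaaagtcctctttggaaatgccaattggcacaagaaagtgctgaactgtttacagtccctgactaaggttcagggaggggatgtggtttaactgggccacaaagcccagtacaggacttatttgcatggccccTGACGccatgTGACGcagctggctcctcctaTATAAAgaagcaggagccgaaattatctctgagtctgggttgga

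All 9 measured members matched a RefSeq promoter, with 13 starts between them, and 7 motifs were searched on both strands. The Mt2A window held 4 matches to the metal response element (TGCACNC or TGCGCNC, in 20.6% of 33469 rat promoters), 1 E-box (CACGTG, 5.59%) and 1 TATA motif (TATAAA, 12.9%). That window is the only one of the 13 with more than 1 metal element, and Angptl4 and Ddit4 had 1 each. The Sgk1 window shown held a TATA motif, and the Tsc22d3 window held a TATA motif and 2 copies of the cAMP element half-site TGACG (18.2% of promoters). No start of any member held the full glucocorticoid response element (AGAACA and TGTTCT, 3 bases apart, 0.012% of promoters), its relaxed form (GNACA and TGTNC, 3 bases apart, 0.373%) or the half-site TGTTCT (17.5%) in these 250 bases. That says only that these letters are not in this window.

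Before the results, several facts about the arrays bear on them. The spiked-in bacterial control BioB split the naive arrays, with 23 at 9.35 to 10.6 log2 units (saline Samples 1-3, amphetamine 1.25 mg/kg and methamphetamine at both doses) and 16 at 5.96 to 6.68 (saline Samples 4-5, amphetamine 5 mg/kg and methylphenidate 5 mg/kg), while pretreated arrays had 9.01 to 10.2. The naive saline arrays are therefore given apart as Samples 1-3 and Samples 4-5. These sets also differed in haemoglobin beta (Hbb, a blood marker), at 12.10 to 13.77 against 9.22 to 10.19 in the PFC and 12.43 to 13.57 against 9.48 to 10.54 in the striatum, and in the log2 ratio of 3′ to 5′ Gapdh signal, a sign of RNA quality, at 0.25 to 0.37 against 1.02 to 1.20 in the PFC and 0.53 to 0.57 against 1.14 to 1.16 in the striatum. The striatal array of naive methamphetamine 1.25 mg/kg Sample 1 had a cortical profile. Test results that its absence changes are given both ways, and the correlations include it. The description of the striatal array of naive saline Sample 1 names the PFC, but its title and source name striatum, and it was read as striatum (Drd2, a striatal dopamine receptor, was 11.92 to 12.04 in striatal and at most 8.10 in PFC saline Samples 1-3). Otherwise the regions matched their labels: in naive saline rats 9 of 9 striatal projection neuron markers were higher in striatum (median 3.74) and 5 of 5 cortical ones lower (median -3.48).

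Across regions, Fkbp5 was the member that differed in every comparison. In pretreated saline rats its signal was 9.94, 9.99 and 9.71 in striatum and 9.14, 9.14 and 8.75 in PFC. No striatal array reached down to a cortical one, and the striatal excess was 0.87 (SE 0.20, limma adjusted p = 0.000731). In naive saline rats the excess was 0.80 (SE 0.16, limma adjusted p = 3.8e-05), and it was 0.90 over Samples 1-3 and 0.65 over Samples 4-5. A second Fkbp5 probe set gave 0.88 in naive and 0.83 in pretreated rats. Klf9, a Krüppel-like factor of neurons and glia, was higher in striatum by 0.36 (SE 0.09, adjusted p = 0.000612) in naive saline rats, while the pretreated difference of 0.24 (SE 0.11, adjusted p = 0.113) did not pass. Bcl6, a zinc finger repressor, was lower in striatum, at -0.37 (SE 0.14, adjusted p = 0.0356) in naive and -0.64 (SE 0.19, adjusted p = 0.00702) in pretreated saline rats. The naive Bcl6 call was lost in 5 of 10 runs that left out 1 array (PFC saline Samples 4 and 5 and striatal saline Samples 1, 2 and 3), with differences of -0.525 to -0.224. The Fkbp5 call over Samples 4-5 was lost without PFC Sample 4 or striatal Sample 5 (0.33 to 0.974), and the Bcl6 call over Samples 1-3 without striatal Sample 1 (highest adjusted p = 0.143).

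So 3 of 9 members passed between regions in naive and 2 of 9 in pretreated rats. Of all 8530 genes tested, 40.4% passed in naive and 27.0% in pretreated saline rats, and 29.6% and 21.7% over naive Samples 1-3 and Samples 4-5, where 3 of 9 and 1 of 9 members passed. The other 6 members, Tsc22d3, Sgk1, Ddit4, Angptl4, Klf15 and Mt2A, had regional differences between -0.06 and 0.42 in naive rats, none of which passed. These fits did not pair the regions. With a block shared by PFC and striatal arrays of equal treatment and Sample number, 4 members passed in naive rats, Sgk1 being added. That block was chosen after seeing the data.

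**Figure D1:**
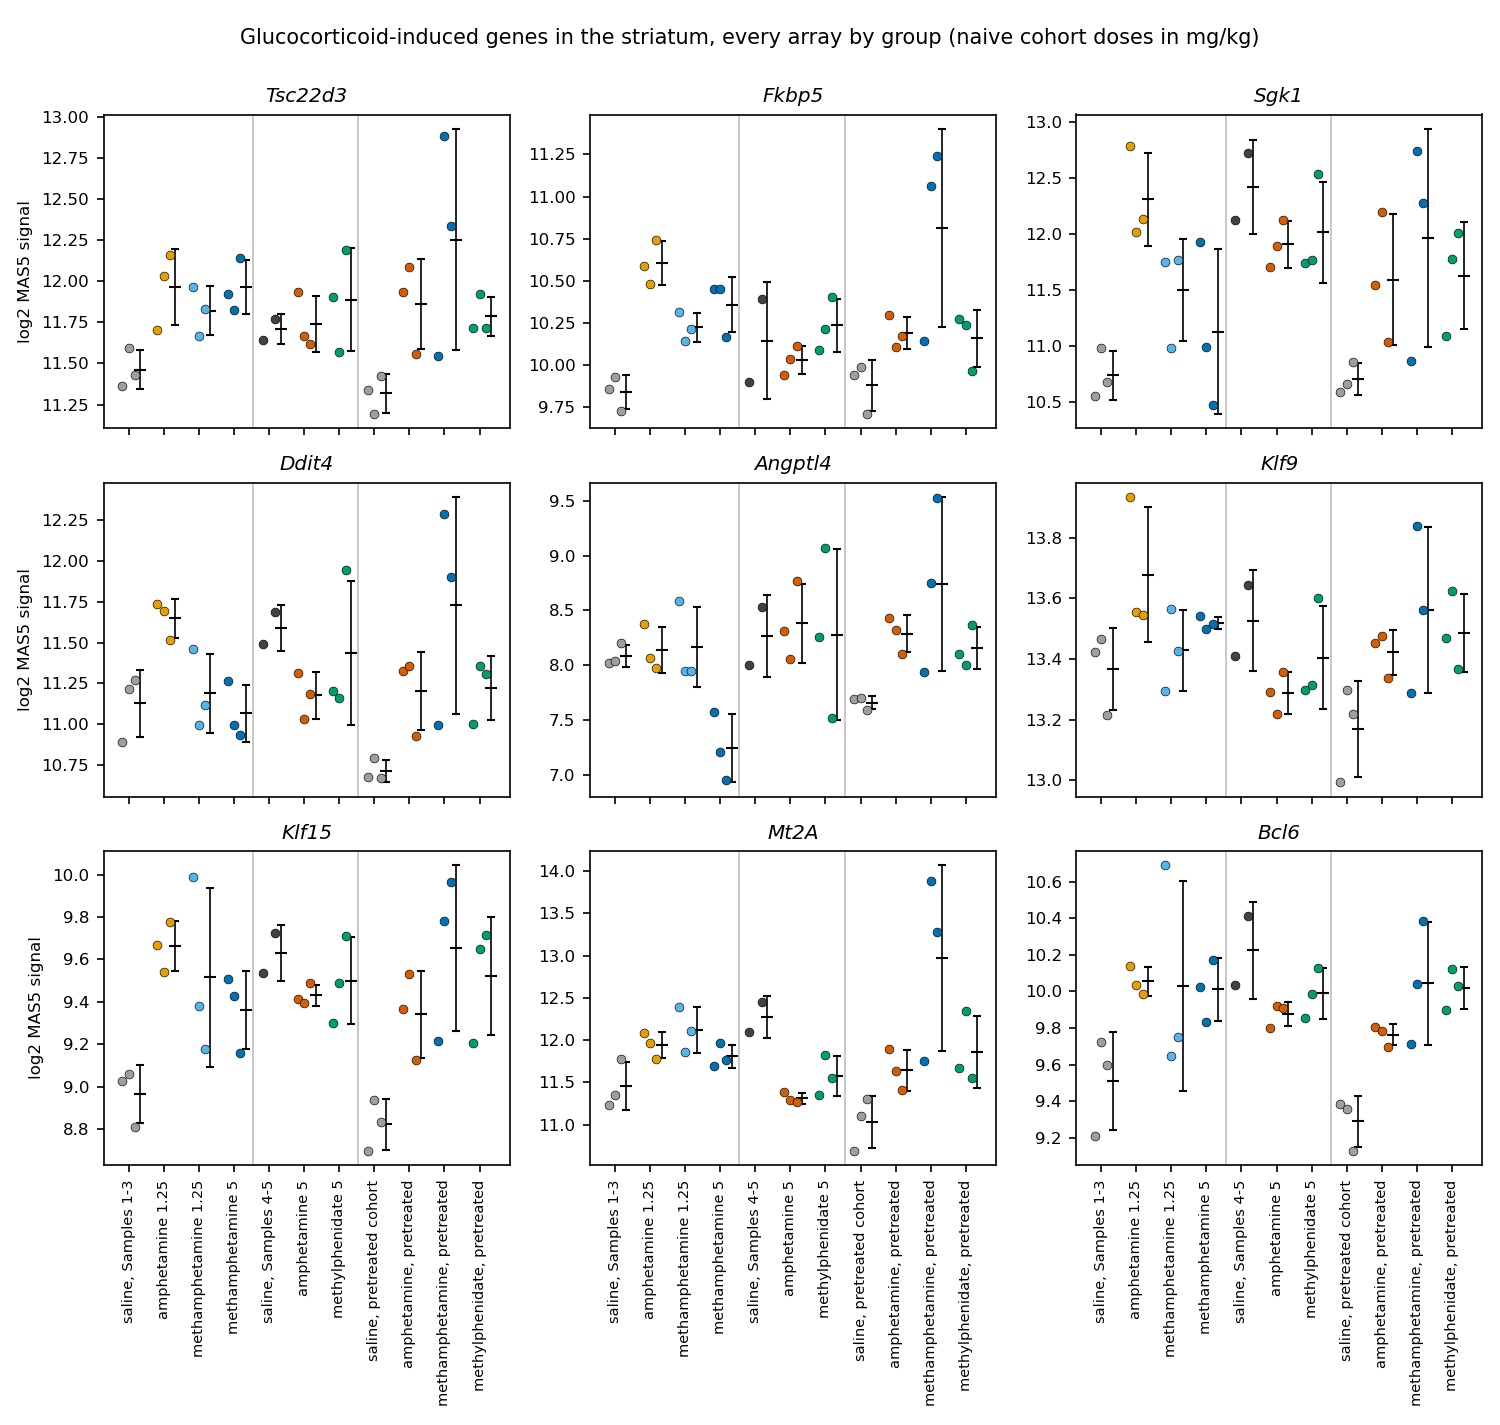
Log2 signal of the 9 measured members in each striatal array (points), by group along the horizontal axis, with the group mean and SD beside each group as a tick with error bars, grey lines between the sets, and naive saline Samples 1-3 and 4-5 apart. The vertical axes differ between genes and do not start at 0. In the pretreated cohort the stimulant arrays sit above the saline arrays for most members, and methamphetamine Samples 2 and 3 are the highest for Mt2A, at 13.88 and 13.28.

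The saline controls of the naive cohort differed among themselves. Sgk1, the kinase, was 10.07, 10.52 and 10.34 in PFC saline Samples 1-3 but 11.89 and 12.17 in Samples 4-5. In the striatum it was 10.56, 10.98 and 10.68 against 12.13 and 12.72. The sets do not overlap in either region, and the differences of 1.72 (SE 0.30, limma adjusted p = 0.00271) in the PFC and 1.68 (SE 0.43, limma adjusted p = 0.0326) in the striatum passed. Mt2A, the metallothionein, was 10.89, 10.87 and 10.93 against 11.74 and 12.44 in the PFC, a difference of 1.19 (SE 0.29, adjusted p = 0.0168). Klf15, a factor that controls amino acid and lipid metabolism, was 8.86, 9.13 and 9.03 against 9.56 and 9.79 there, a difference of 0.67 (SE 0.13, adjusted p = 0.00505). Bcl6 was 10.01, 9.94 and 10.05 against 10.19 and 10.64, a difference of 0.42 (SE 0.12, adjusted p = 0.0367).

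In the PFC, 4 of 9 members thus rose in Samples 4-5 relative to Samples 1-3, where 5.73% of all genes passed, and in the striatum 1 of 9, where 2.57% did. All 9 differences were above 0 in each region, with a median of 0.555 in the PFC and 0.460 in the striatum, against 0.0129 and 0.0160 over all genes. For 8 of 9 members in the PFC and 6 of 9 in the striatum the sets did not overlap, which held for 44.0% and 43.1% of all genes. Without PFC saline Sample 5 no member passed (Sgk1 1.57, adjusted p = 0.0577, Mt2A 0.84, adjusted p = 0.245), and 1 of 5 such runs kept Bcl6. The striatal Sgk1 call was lost in each of the 5 runs that left out a saline array (lowest adjusted p = 0.0634), and without the array of cortical profile Sgk1, Klf15 and Bcl6 passed. Mural and meningeal cell markers above the signal filter were below 0 in 4 of 4 in the PFC and 3 of 3 in the striatum. List levels here and below are the mean log2 signal over all measured markers of a list, also those under the filter. For this list the level was 7.98 to 8.27 in PFC Samples 1-3 against 7.30 to 7.46 in Samples 4-5. In the striatum it was 7.53 to 8.09 against 6.97 to 7.08. The mean microglial level was 9.38 to 9.85 against 9.13 to 9.19 in the PFC and 9.56 to 9.74 against 9.04 to 9.37 in the striatum. These lists, the BioB level, Hbb and the Gapdh ratio differed between the same arrays, and their part in these differences cannot be told apart from that of the rats.

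**Figure D2:**
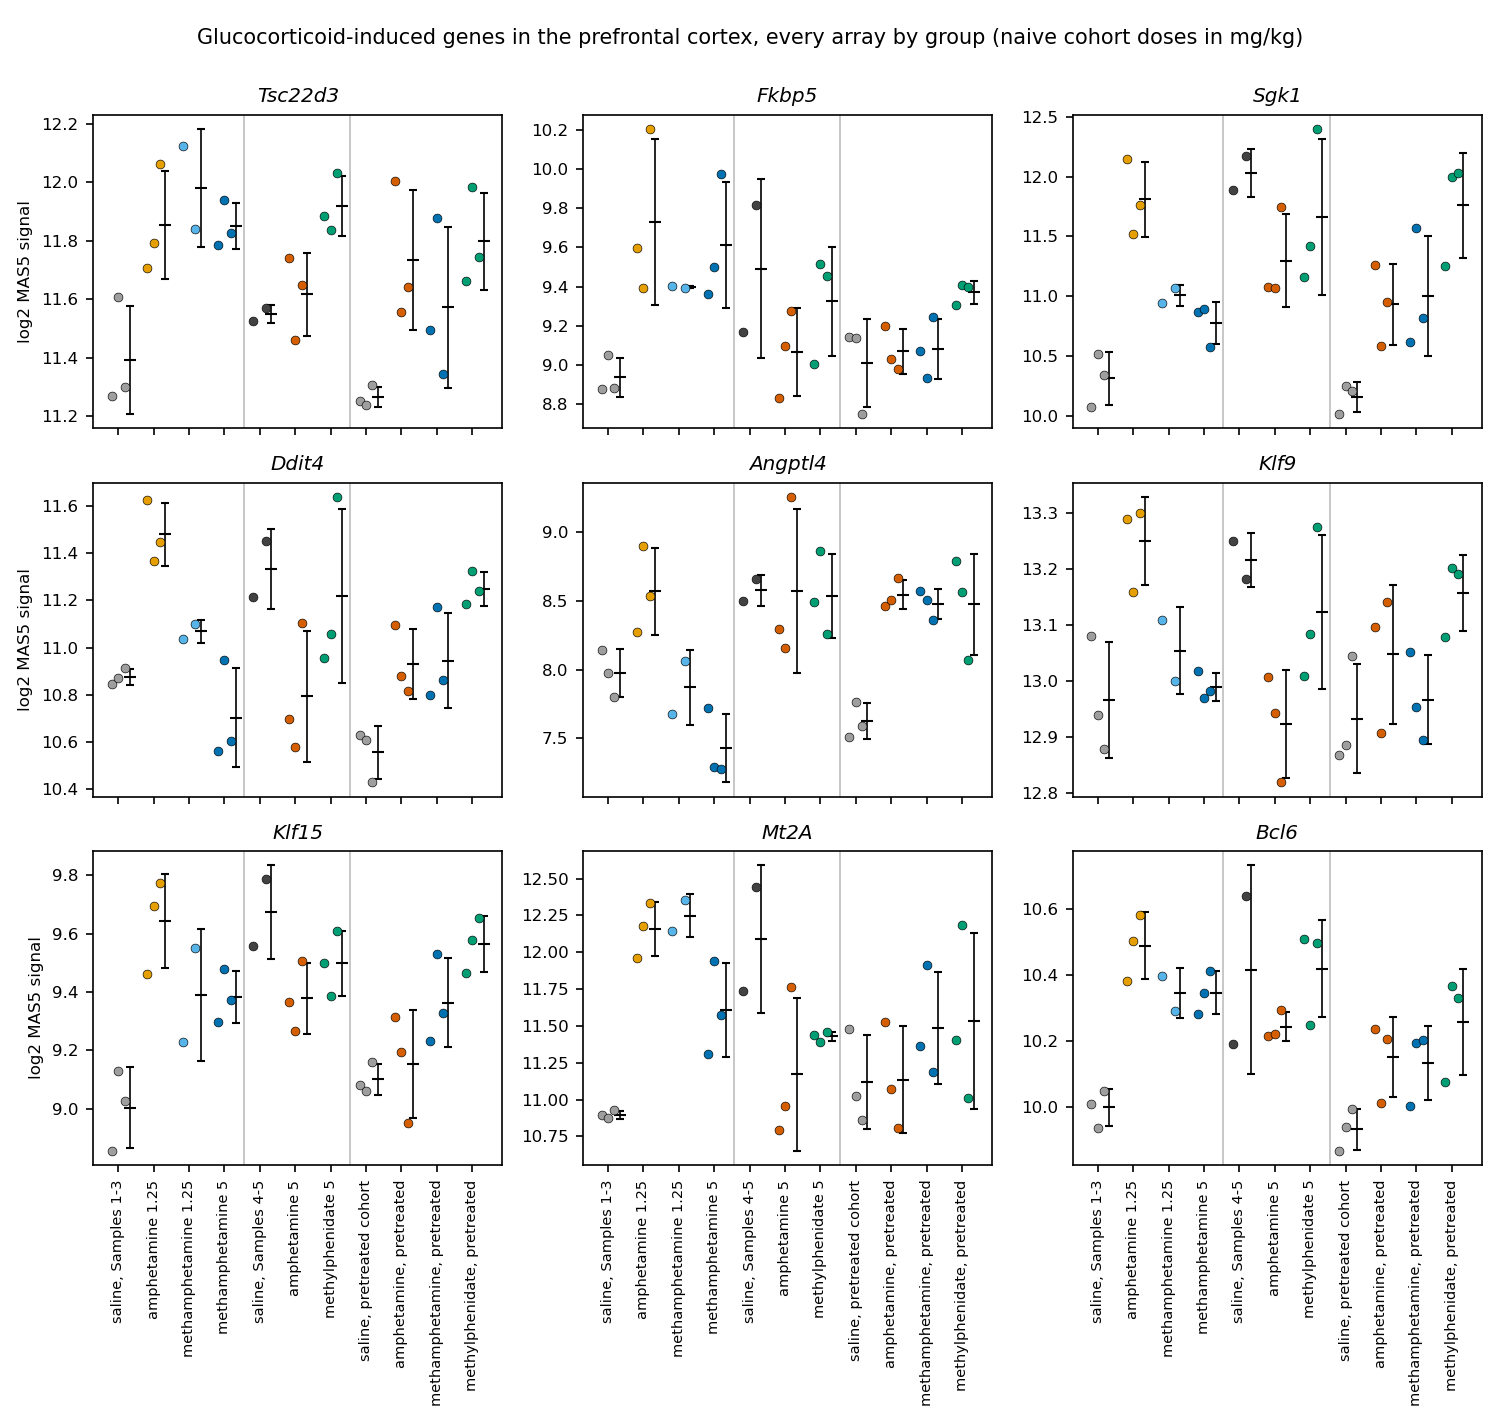
Log2 signal of the 9 measured members in each PFC array (points), by group along the horizontal axis, with the group mean and SD as a tick with error bars, on vertical axes that differ between genes and do not start at 0. Naive saline Samples 4-5 lie above Samples 1-3 for Sgk1 (11.89 and 12.17 against 10.07 to 10.52), and pretreated stimulant arrays lie above pretreated saline for Angptl4 (8.07 to 8.79 against 7.51 to 7.77).

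Set against saline Samples 1-3, the naive stimulant groups of the same BioB level (amphetamine 1.25, methamphetamine 1.25 and 5 mg/kg) had higher signal of several members in the PFC. Mt2A was 11.96, 12.18 and 12.33 after amphetamine 1.25 mg/kg, 12.15 and 12.35 after methamphetamine 1.25 mg/kg and 11.31, 11.94 and 11.57 after methamphetamine 5 mg/kg, all above the 10.87 to 10.93 of the saline arrays. The mean rise was 1.11 (SE 0.21, limma adjusted p = 0.0193). Tsc22d3 was 11.71, 11.79 and 12.06, then 12.12 and 11.84, then 11.79, 11.94 and 11.83 in the same groups, against 11.27, 11.61 and 11.30 in saline. It rose by 0.50 (SE 0.11, adjusted p = 0.0313), and all 8 stimulant arrays exceeded every saline array. Klf15 rose by 0.47 (SE 0.10, adjusted p = 0.0241) and Bcl6 by 0.39 (SE 0.09, adjusted p = 0.0347). Fkbp5 at 0.64 (SE 0.16, adjusted p = 0.0631) and Sgk1 at 0.89 (SE 0.22, adjusted p = 0.0687) did not pass. Ddit4, Klf9 and Angptl4 had differences of 0.21, 0.13 and -0.02.

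This was 4 of 9 members rising where 0.445% of all genes passed, with a median of 0.468 against -0.00076 over all genes. In 6 of 9 members the groups did not overlap, against 2.58% of all genes. Saline Samples 4-5 themselves exceeded Samples 1-3 by 1.19 for Mt2A, 0.67 for Klf15, 0.42 for Bcl6 and 0.16 for Tsc22d3. Each of the 4 calls was lost in some of the 11 runs that left out an array: Mt2A without saline Sample 1, 2 or 3, Klf15 without saline Sample 1 or 3, Tsc22d3 without saline Sample 1 or 3, amphetamine Sample 3 or methamphetamine 1.25 mg/kg Sample 1, and Bcl6 without saline Sample 1, 2 or 3 or either of those stimulant arrays. The differences stayed at 1.05 to 1.16, 0.394 to 0.531, 0.442 to 0.610 and 0.363 to 0.419. A second Fkbp5 probe set passed, at 1.11 (adjusted p = 0.0129). Of oligodendrocyte markers 3 of 10 were above 0 and 2 fell, and the mean level of that list was 11.65 to 11.98 in the saline arrays and 11.30 to 11.63 in the stimulant arrays. Mural and meningeal markers were below 0 in 4 of 4, with a mean list level of 7.98 to 8.27 in saline, 7.51 to 8.40 after amphetamine and 7.38 to 7.61 after methamphetamine. The Gapdh ratio was 0.25 to 0.37 in saline and 0.32 to 0.80 in the stimulant arrays, and the part of these in the differences was not tested.

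In the striatum the same comparison called Fkbp5, at 10.59, 10.48 and 10.74 after amphetamine 1.25 mg/kg, 10.32, 10.14 and 10.21 after methamphetamine 1.25 mg/kg and 10.45, 10.45 and 10.17 after methamphetamine 5 mg/kg, against 9.86, 9.93 and 9.73 in saline. All 9 stimulant arrays lay above the saline arrays, and the rise was 0.56 (SE 0.15, limma adjusted p = 0.0455). Only 4 of 12 runs that left out an array kept that call, and it was also lost without the array of cortical profile. Klf15 at 0.55 (adjusted p = 0.0576) and Bcl6 at 0.52 (adjusted p = 0.082) did not pass. This was 1 of 9 members against 1.72% of all genes, and 3 of 9 without overlap against 4.64%.

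Saline Samples 4-5 gave another picture for the groups of low BioB level. These groups shared the BioB level of Samples 4-5 but not their low Hbb signal. Hbb was higher after the stimulants by 3.58 in the PFC (limma adjusted p = 9.21e-07) and by 3.46 in the striatum (adjusted p = 2.03e-06). The part of blood in the members' differences was not tested. Mt2A in the PFC was 10.79, 10.96 and 11.76 after amphetamine 5 mg/kg and 11.44, 11.39 and 11.46 after methylphenidate 5 mg/kg, against 11.74 and 12.44 in those saline arrays. Only amphetamine Sample 3 reached the lower saline array, and the difference of -0.79 (SE 0.26, limma adjusted p = 0.827) did not pass. Sgk1 was 11.08, 11.07 and 11.74 and then 11.16, 11.42 and 12.40, against 11.89 and 12.17, a difference of -0.55 (SE 0.27) that did not pass. No member passed in either region, where 0.0234% of genes did in the PFC and 0.0117% in the striatum. In the PFC 4 of 9 members had an unadjusted p under 0.05, as 4.22% of all genes did, and in the striatum 1 of 9, against 4.27%. The members' median was -0.234 in the PFC and -0.180 in the striatum, with 8 of 9 and 7 of 9 below 0. Groups without overlap were 0 of 9 in the PFC (8.65% of all genes) and 1 of 9 in the striatum (9.61%), where Mt2A was 11.27 to 11.82 after the stimulants and 12.10 and 12.45 in saline.

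The difference between these effects passed for Mt2A in the PFC, at -1.90 (SE 0.34, 95% interval -2.59 to -1.21, limma adjusted p = 0.00971), where 0.117% of all genes passed. The 1.19 by which the saline sets differed for Mt2A in the PFC is part of that value. The call was kept in 30 of 31 runs that left out an array and lost without saline Sample 5 (-1.54, adjusted p = 0.424). Klf15 at -0.70 (adjusted p = 0.0555) and Sgk1 at -1.43 (adjusted p = 0.103) did not pass, and in the striatum, where 0.0117% of genes passed, no member did (Mt2A -1.33, adjusted p = 0.393). Hbb passed the same test, at 2.99 in the PFC (limma adjusted p = 0.00298) and 3.21 in the striatum (adjusted p = 0.00123). Its part in the Mt2A difference was not tested. With all 5 saline arrays as 1 group, no member passed in either region, where 0.0586% and 0.0938% of genes did. Tsc22d3 in the PFC came closest, at 0.39 (SE 0.08, adjusted p = 0.0734), and 13 of 14 stimulant arrays exceeded every saline array. It passed (adjusted p = 0.0485) without methamphetamine 1.25 mg/kg Sample 2. For no member were the groups free of overlap, as for all but 0.0703% of genes in the PFC and 0.117% in the striatum.

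Taken singly against saline Samples 1-3, amphetamine 1.25 mg/kg had the most calls in the PFC. Sgk1 was 12.14, 11.52 and 11.76 there and rose by 1.5 (SE 0.27, limma adjusted p = 0.00985), Klf15 rose by 0.64 (adjusted p = 0.0106), Mt2A by 1.26 (adjusted p = 0.0272) and Bcl6 by 0.49 (adjusted p = 0.0349). All 9 members lay above saline Samples 1-3 without overlap, against 17.3% of all genes, and 4 of 9 passed against 0.234%. Saline Samples 4-5, which received no stimulant, had mean levels of 12.03 for Sgk1, 9.67 for Klf15, 12.09 for Mt2A and 10.42 for Bcl6. After amphetamine 1.25 mg/kg these were 11.81, 9.64, 12.16 and 10.49. The Mt2A and Bcl6 calls were lost in each of the 6 runs that left out an array, and the Sgk1 and Klf15 calls in 3 and 2 of them. After methamphetamine 1.25 mg/kg, with 2 PFC arrays, Mt2A rose by 1.35 (SE 0.29, adjusted p = 0.0164) and Tsc22d3 by 0.59 (SE 0.15, adjusted p = 0.0293), where 4.89% of genes passed. Both calls were lost without its Sample 1, and that of Tsc22d3 also without saline Sample 1 or 3. No member passed in the PFC after methamphetamine 5 mg/kg (0.0352% of genes), or after amphetamine 5 mg/kg (0.0117%) or methylphenidate 5 mg/kg (0.0234%) against Samples 4-5. In the striatum none passed after any of the 5 (0.352% of genes for amphetamine 1.25, 0.223% for methamphetamine 1.25, 0.281% for methamphetamine 5, 0.0117% for amphetamine 5 and 0.0117% for methylphenidate 5 mg/kg). Fkbp5 after amphetamine 1.25 mg/kg came closest, at 0.77 (adjusted p = 0.0546).

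Against all 5 saline arrays the single groups had 1 call, Tsc22d3 in the PFC after methamphetamine 1.25 mg/kg, at 0.53 (limma adjusted p = 0.0189), where 11.1% of genes passed, and it was lost without that group's Sample 1. In the PFC 0.492%, 0.0117%, 0.0352% and 0.0% of genes passed after amphetamine 1.25, amphetamine 5, methamphetamine 5 and methylphenidate 5 mg/kg. In the striatum the shares were 0.34%, 0.0%, 0.188%, 0.328% and 0.129% for amphetamine 1.25 and 5, methamphetamine 1.25 and 5, and methylphenidate 5 mg/kg.

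In the striatum of the pretreated cohort, every member was higher in the stimulant groups than in saline, though none passed over all genes in the mean of the 3 stimulants. Mt2A was 11.89, 11.63 and 11.41 after amphetamine, 11.75, 13.88 and 13.28 after methamphetamine and 11.67, 12.35 and 11.55 after methylphenidate, against 10.69, 11.10 and 11.30 in saline. All 9 stimulant arrays exceeded every saline array, with a mean difference of 1.13 (SE 0.27, limma adjusted p = 0.0548). Klf15 was 9.37, 9.53 and 9.12, then 9.21, 9.78 and 9.96, then 9.20, 9.65 and 9.72, against 8.70, 8.94 and 8.83. Here too no array overlapped, with a difference of 0.68 (SE 0.17, adjusted p = 0.0634). Tsc22d3, the GILZ gene, was 11.94, 12.09 and 11.56, then 11.54, 12.88 and 12.34, then 11.72, 11.92 and 11.72, against 11.34, 11.19 and 11.42, a difference of 0.65 (SE 0.17, adjusted p = 0.0711).

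Bcl6 was 9.81, 9.79 and 9.70, then 10.04 and 10.38 with 9.71 in methamphetamine Sample 1, then 9.90, 10.12 and 10.03, against 9.38, 9.36 and 9.13 in saline. It differed by 0.65 (SE 0.18, adjusted p = 0.0872). Ddit4, the mTORC1 inhibitor, differed by 0.67 (SE 0.19, adjusted p = 0.0872), Fkbp5 by 0.51 (SE 0.15, adjusted p = 0.0955), Klf9 by 0.32 (SE 0.10, adjusted p = 0.133), Angptl4 by 0.74 (SE 0.25, adjusted p = 0.15) and Sgk1 by 1.02 (SE 0.38, adjusted p = 0.196). Fkbp5 and Klf9 each had 1 stimulant array just under the highest saline array, and the other 7 members did not overlap, against 6.1% of all genes. None of 9 passed, against 0.363% of all genes, while all 9 had an unadjusted p under 0.05, against 16.2% of all genes, and the members' median was 0.669 against -0.0124 over all genes.

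The number of members that passed varied with the arrays in the fit. Without methamphetamine Sample 1, 7 passed, all but Klf9 (adjusted p = 0.0501) and Sgk1 (adjusted p = 0.0749), with Mt2A at 1.33 (adjusted p = 0.00112). Without methylphenidate Sample 3, Mt2A passed alone, at 1.18. Without the array of cortical profile, 4 passed at the same differences, namely Bcl6 (adjusted p = 0.0265), Klf15 (0.0265), Mt2A (0.0283) and Tsc22d3 (0.0433). With only the pretreated arrays in the fit, Bcl6 (adjusted p = 0.0229) and Klf15 (0.0449) passed. The share of all genes that passed in these other fits was not set beside the counts, so they are no result about the members.

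The methamphetamine group had the largest differences from saline in the pretreated striatum for all 9 members. Mt2A rose by 1.94 (SE 0.33, limma adjusted p = 0.0243). Fkbp5 was 10.15, 11.06 and 11.24 against 9.94, 9.99 and 9.71 and rose by 0.94 (SE 0.18, adjusted p = 0.0243). Ddit4 was 10.99, 12.28 and 11.90 against 10.68, 10.80 and 10.67 and rose by 1.01 (SE 0.23, adjusted p = 0.0377). Tsc22d3 rose by 0.93 (SE 0.21, adjusted p = 0.0348). These were 4 of 9 members against 0.703% of all genes, and 8 of 9 did not overlap, against 24.6%.

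Within that group Sample 1 was the lowest array for each member named, nearer saline than Samples 2 and 3. The median difference of the 9 members from the saline mean was 0.28 in Sample 1, 1.18 in Sample 2 and 1.19 in Sample 3. Without Sample 1 all 9 passed (Mt2A 2.55, adjusted p = 2.72e-06, Fkbp5 1.27, adjusted p = 7.01e-06, Sgk1 1.81, adjusted p = 0.0349). Without Sample 2, Sample 3 or any of the 3 saline arrays each of the 4 calls was lost (Mt2A down to 1.48, highest adjusted p = 0.237). Without the array of cortical profile 6 passed, Klf15 (adjusted p = 0.0345) and Bcl6 (adjusted p = 0.0392) with the 4. The 0.703% of all genes belongs to the fit of all arrays. The shares in the smaller fits were not set beside these counts, so the larger counts are no result about the members. After amphetamine and after methylphenidate no member passed, where 0.0% and 0.0821% of genes did, and groups without overlap were 9 of 9 and 8 of 9, against 25.2% and 20.7% of all genes. Mt2A differed by 0.61 and 0.83 there.

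**Figure D3:**
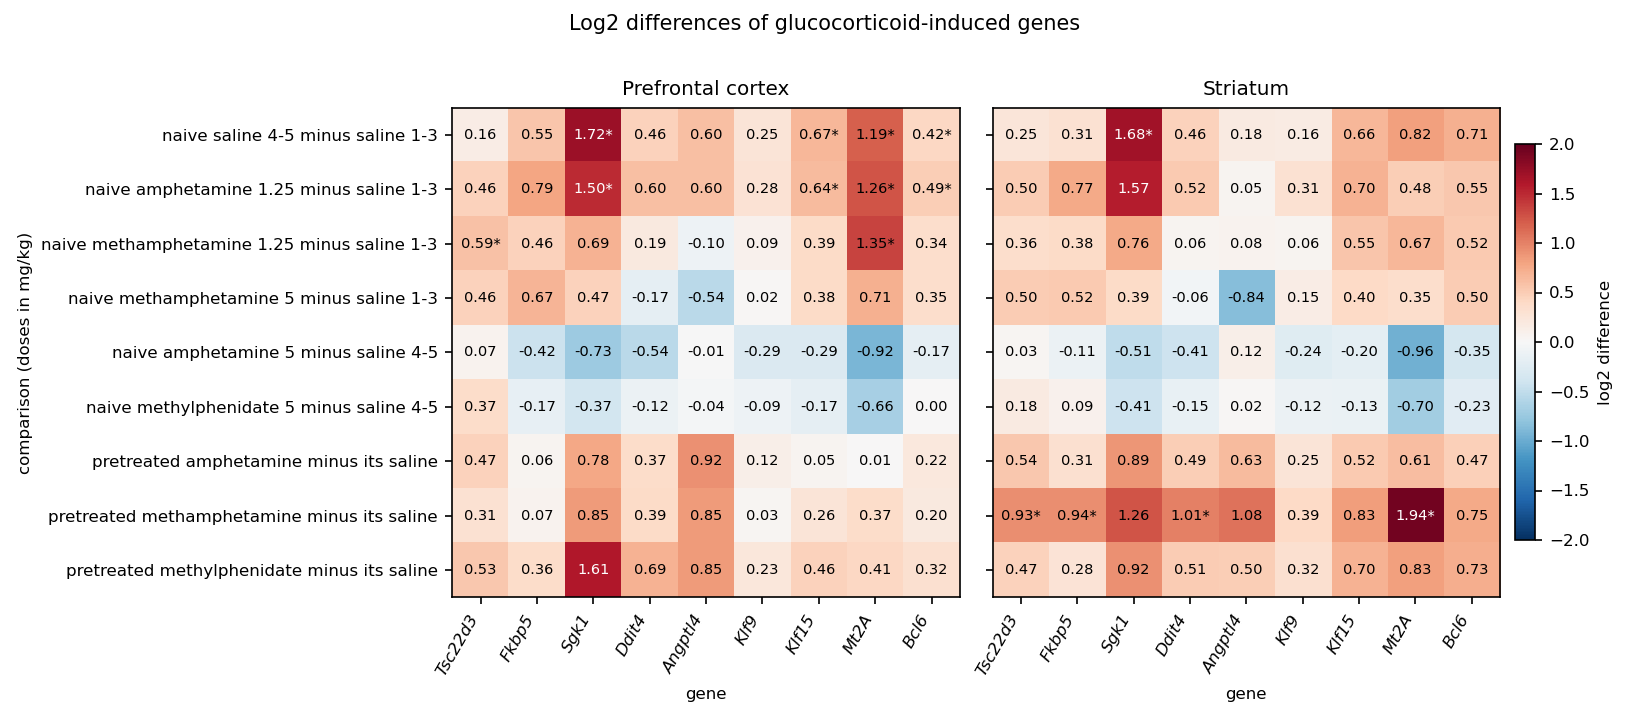
Log2 difference (stimulant minus saline, and at the top saline Samples 4-5 minus Samples 1-3) of each measured member (columns) in each comparison (horizontal lines of cells), for PFC and striatum, with colour from blue (lower) to red (higher) on a scale from -2 to 2 and an asterisk where the limma adjusted p was under 0.05. The pretreated comparisons in the striatum are positive throughout, from 0.25 for Klf9 after amphetamine to 1.94 for Mt2A after methamphetamine, and the comparisons against saline Samples 4-5 are mostly negative.

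Cell type marker lists also differed between the pretreated striatal arrays. Of markers of astrocytes, where Mt2A is abundant, 10 of 10 were above 0 (median 0.207) and none passed, and the mean level of that list was 11.65 to 11.86 in saline and 11.91 to 12.12 over the stimulant arrays. Microglial markers were above 0 in 8 of 8 (median 0.313), cortical projection neuron markers in 3 of 3 (median 1.18) and striatal projection neuron markers in 0 of 9 (median -0.300), and none of these passed. The mean level of the cortical list was 5.92 to 6.67 in saline, 6.70 to 7.21 after amphetamine, 6.30 to 6.77 after methamphetamine and 7.29 to 7.92 after methylphenidate. The choroid plexus list, with 1 of 5 named markers tested, had a mean level of 6.27 to 6.77 in saline, 7.13 to 8.09 after amphetamine, 7.06 to 7.11 after methamphetamine and 5.96 to 7.76 after methylphenidate. Oligodendrocyte markers were above 0 in 2 of 10 (median -0.223), with a mean list level of 12.13 to 12.44 in saline and 11.80 to 12.38 in the stimulant arrays. The Gapdh ratio was 0.744 to 1.04 in saline and 0.878 to 1.24 in the stimulant arrays. The part of these in the members' differences was not tested. In such bulk tissue, a change in the share of a cell type and a change in RNA per cell cannot be told apart.

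In the PFC of the pretreated cohort the members were also higher after stimulants, with no call over all genes. Angptl4, the secreted lipase inhibitor, was 8.46, 8.51 and 8.67 after amphetamine, 8.57, 8.51 and 8.36 after methamphetamine and 8.79, 8.57 and 8.07 after methylphenidate, against 7.51, 7.77 and 7.59 in saline. All 9 stimulant arrays exceeded saline, with a difference of 0.88 (SE 0.20, limma adjusted p = 0.0863). Sgk1 was 11.26, 10.59 and 10.95, then 10.62, 11.57 and 10.82, then 11.25, 12.00 and 12.03, against 10.01, 10.25 and 10.20. It too was without overlap, at 1.08 (SE 0.32, adjusted p = 0.346). Tsc22d3 differed by 0.44 (SE 0.11, adjusted p = 0.162), Ddit4 by 0.49 (SE 0.13, adjusted p = 0.296) and the remaining 5 members by 0.12 to 0.26.

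None of the 9 passed, against 0.0703% of all genes, while 5 had an unadjusted p under 0.05, against 5.45% of all genes. All 9 differences were above 0 (median 0.263, against -0.00939 over all genes), and 5 of 9 members did not overlap, against 1.52% of all genes. With only the pretreated arrays in the fit, Angptl4 (adjusted p = 0.0182) and Sgk1 (adjusted p = 0.0430) passed. The share of all genes that passed in that fit was not set beside these calls, so they are no result about the members. No member passed for a single stimulant, where 0.0234%, 0.0117% and 0.0938% of genes did after amphetamine, methamphetamine and methylphenidate, and groups without overlap were 5, 6 and 8 of 9, against 13.8%, 9.86% and 11.9% of all genes. The largest single differences were those of Sgk1 after methylphenidate, at 1.61 (SE 0.39, adjusted p = 0.123), and of Angptl4 after amphetamine, at 0.92 (SE 0.24, adjusted p = 0.234).

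Whether the stimulants acted differently in the cohorts was tested as the difference of their effects, with all 5 naive saline arrays, and no member passed in either region, where 0.0% of genes did in the PFC and 0.0821% in the striatum. The striatal difference was 1.16 for Mt2A (SE 0.34, 95% interval 0.45 to 1.86, limma adjusted p = 0.117) and 0.85 for Angptl4 (SE 0.32, adjusted p = 0.178). In the PFC it was 0.90 for Angptl4 (SE 0.25, 95% interval 0.38 to 1.41, adjusted p = 0.589) and -0.09 for Mt2A. At an unadjusted p under 0.05 there were 2 of 9 members in the PFC (Angptl4 and Ddit4), against 3.77% of all genes, and 4 of 9 in the striatum (these and Mt2A and Klf9), against 16.2%. These values shifted with the saline set, and the drugs and doses shifted with it. The stimulants of Samples 1-3 did not include methylphenidate, and those of Samples 4-5 did not include methamphetamine. With Samples 1-3 and their stimulants the cohort difference of Mt2A was 0.62 in the striatum and -0.84 in the PFC, and with Samples 4-5 and theirs it was 1.96 (limma adjusted p = 0.0582) and 1.05. No member passed with either set, where 0.0352% and 0.481% of genes did in the PFC and striatum with Samples 1-3 and 0.0352% in each region with Samples 4-5.

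The stimulants are related compounds. Methamphetamine is the N-methyl analog of amphetamine, and methylphenidate carries its amine in a piperidine ring and has a methyl ester. At the same conditioning dose 7 pairs were compared per region, though the infused amounts of methylphenidate were not matched. Angptl4 in the PFC was 7.72, 7.29 and 7.28 after methamphetamine 5 mg/kg in naive rats, 8.30, 8.16 and 9.26 after amphetamine and 8.49, 8.86 and 8.26 after methylphenidate. Methamphetamine was below both without overlap, by -1.14 against amphetamine (95% interval -1.63 to -0.65, limma adjusted p = 0.0187), and methylphenidate was above methamphetamine by 1.11 (0.61 to 1.60, adjusted p = 0.0258). The first call was lost without amphetamine Sample 3 or methamphetamine Sample 2, the second without methamphetamine Sample 3 or any methylphenidate array, and the methamphetamine arrays differ from those of the other 2 compounds in BioB level, which cannot be told apart from the compound. In the PFC 1.45% and 1.85% of genes passed in these pairs.

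In the striatum Angptl4 was 7.57, 7.21 and 6.95 after methamphetamine 5 mg/kg, 8.31, 8.06 and 8.77 after amphetamine and 8.26, 9.07 and 7.51 after methylphenidate. The differences of -1.14 (95% interval -1.77 to -0.51) and 1.04 (0.41 to 1.67) did not pass over all genes, where 1.58% and 1.57% did, but had limma adjusted p = 0.00632 and adjusted p = 0.0075 over the 7 pairs of that gene. By the same adjustment over pairs, 10 of 126 differences of the members had a p under 0.05, in Angptl4, Ddit4, Fkbp5 and Mt2A, against 3.76% of the differences of all genes. In the pretreated striatum Mt2A was higher after methamphetamine than after amphetamine by 1.32 (95% interval 0.64 to 2.01, limma adjusted p = 0.00317 over pairs) and methylphenidate was lower than methamphetamine by -1.11 (-1.79 to -0.43, adjusted p = 0.00866 over pairs), while for Fkbp5 these were 0.62 (0.25 to 1.00) and -0.66 (-1.03 to -0.28). In these pretreated pairs the groups overlapped for every member (0 of 9 without overlap, against 7.40% and 11.8% of all genes). For Mt2A the lowest methamphetamine array, at 11.75, lay within the 11.41 to 11.89 of amphetamine. The rest of the 10 were Angptl4 in the PFC at 1.25 mg/kg (methamphetamine minus amphetamine -0.70, limma adjusted p = 0.0338 over pairs) and Ddit4 in the PFC at 5 mg/kg (methylphenidate minus methamphetamine 0.51, adjusted p = 0.0277 over pairs).

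Methylphenidate and amphetamine at 5 mg/kg in naive rats differed by -0.04 to 0.42 for the members in the PFC and by -0.10 to 0.26 in the striatum, where 0.0% of genes passed in each region. These shared a BioB level, and a p that misses the threshold does not show that they act alike. The interval for Sgk1 in the PFC ran from -0.43 to 1.16 and that for Mt2A from -0.40 to 0.92. In pretreated rats the same compounds differed by 0.83 for Sgk1 in the PFC (95% interval 0.03 to 1.62, limma adjusted p = 0.132 over pairs). No gene passed in any of the 3 pretreated pairs in either region (0.0% each). At 1.25 mg/kg 6.26% of genes passed in the PFC and 0.0% in the striatum, none of them members.

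Between amphetamine doses in naive rats, 3 members in the PFC were lower at 5 than at 1.25 mg/kg. Ddit4 was 10.70, 10.58 and 11.10 at 5 mg/kg and 11.62, 11.37 and 11.45 at 1.25 mg/kg and fell by 0.69 (SE 0.16, limma adjusted p = 0.0156). Fkbp5 was 8.83, 9.10 and 9.28 against 9.60, 9.39 and 10.20 and fell by 0.66 (SE 0.21, adjusted p = 0.0481), and Klf9 fell by 0.33 (SE 0.10, adjusted p = 0.0387). The doses did not overlap for any of the 3, and for 5 of 9 members in all, against 38.1% of all genes. This was 3 of 9 against 7.07% of all genes, and the doses differ in BioB level, which cannot be told apart from the dose. The calls were lost in 3, 5 and 6 of the 6 runs that left out an array. Mt2A at -0.99 (adjusted p = 0.0584) did not pass. In the striatum no member passed, where 1.68% of genes did, and for methamphetamine, whose doses share a BioB level, 0.0% of genes passed in each region.

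The wider pathway was read from 3 lists. Of the 7 receptor and chaperone genes tested, none passed in either region in the pretreated mean, in the mean against saline Samples 1-3 or between the saline sets. Nr3c1, the glucocorticoid receptor, had pretreated mean differences of -0.04 (PFC) and -0.23 (striatum), and Nr3c2 of -0.07 and -0.03. Fkbp4, a co-chaperone that aids the receptor's transport, differed by -0.15 and -0.04. Of genes of hormone access and the stress axis, 4 were tested in the PFC and 2 in the striatum and none passed in those comparisons. Hsd11b1, the enzyme that regenerates active hormone in cells, differed by -0.08 and 0.33 in the pretreated mean, and Crh, the corticotropin releasing hormone, by -0.34 in the PFC (adjusted p = 0.763). Nr3c2 after methamphetamine 1.25 mg/kg in the PFC, at -0.37 (limma adjusted p = 0.0447), and Hsd11b1 there against Samples 1-3, at 0.66 (adjusted p = 0.0494), passed among that group's many calls.

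Other glucocorticoid-induced genes, 17 tested in the PFC and 19 in the striatum, moved in part with the members. Between naive saline sets in the PFC 7 of 17 rose in Samples 4-5: Pdk4, a kinase that shuts glucose oxidation, by 1.66 (SE 0.35, limma adjusted p = 0.00745), Gpd1, glycerol phosphate dehydrogenase, by 1.23, Sult1a1, a sulfotransferase, by 1.18, Cdkn1a, the cell cycle inhibitor p21, by 1.07, Cebpb by 0.86, Arrdc2 by 0.67 and Errfi1 by 0.62. Of all genes, 5.73% passed in that comparison. In the striatum 1 of 19 rose, the transcription factor Cebpb, by 1.25 (adjusted p = 0.0306), where 2.57% of all genes passed. Against Samples 1-3, Sult1a1 rose by 1.71 (SE 0.26, adjusted p = 0.00169) and Gpd1 by 0.84 in the PFC, which was 2 of 17, and Sult1a1 by 2.17, Gpd1 by 1.30 and Cebpb by 1.12 in the striatum, which was 3 of 19. Of all genes, 0.445% passed against Samples 1-3 in the PFC and 1.72% in the striatum. The difference between the effects against either saline set passed in the PFC for Sult1a1 (-2.26), Cdkn1a (-1.48) and Gpd1 (-1.38), as it did for Mt2A, where 0.117% of all genes passed. The difference between the saline sets, given above for these 3 genes, is part of these values.

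In the pretreated striatum, 2 of 19 rose in the mean of the stimulants, Glul, the astrocyte glutamine synthetase, by 0.45 (SE 0.09, limma adjusted p = 0.0241) and Mertk, a phagocytic receptor, by 0.76 (SE 0.17, adjusted p = 0.0425), and 18 of 19 were above 0. Of all genes, 0.363% passed in that mean, and their median difference was just under 0. After methamphetamine Cebpd rose by 1.36, Fam107a by 0.70 and Glul by 0.50 in the pretreated striatum, where 0.703% of all genes passed. Per1, the clock gene, rose in the PFC after pretreated methylphenidate by 0.83 (SE 0.15, adjusted p = 0.00996), and in the pretreated mean it differed by 0.53 in the PFC (adjusted p = 0.0863) and 0.21 in the striatum. Dusp1, a phosphatase that the hormone and neuronal activity both induce, differed by -0.02 and -0.03 in the pretreated mean and by -0.61 in the PFC in the naive mean (adjusted p = 0.133). Metallothionein Mt1 was below the signal filter in both regions. The pretreated mean differences of Sult1a1, 0.76 (PFC) and 1.30 (striatum), did not pass.

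Single comparisons called further genes of these lists. After amphetamine 1.25 mg/kg, Sult1a1 rose by 2.27, Pdk4 by 1.53 and Gpd1 by 1.14 in the PFC and Cebpb by 1.36 in the striatum against Samples 1-3. After methamphetamine 1.25 mg/kg in the PFC, Sult1a1 rose by 1.5 and Fam107a by 0.51, and Crhbp, which binds the stress peptide Crh, fell by 0.93 against Samples 1-3, while against all saline Fam107a rose by 0.50, Glul by 0.41, and Crhbp fell by 0.77 and the receptor coactivator Ncoa1 by 0.39. Sult1a1 after amphetamine 1.25 mg/kg rose by 1.80 against all saline, and the cohort difference of Per1 with Samples 4-5 in the PFC was 1.05. Between amphetamine doses in the PFC Sult1a1 fell by 1.71, Per1 by 0.59, Mertk by 0.55, Fam107a by 0.52 and Glul by 0.43 from 1.25 to 5 mg/kg, along with Ddit4, Fkbp5 and Klf9. At 5 mg/kg in naive rats Per1 in the striatum was higher after methamphetamine than after amphetamine by 0.90 and lower after methylphenidate than after methamphetamine, at -1.0 in the striatum and -0.55 in the PFC, opposite to the order of Angptl4. Errfi1 (-0.75) and Nfkbia, an inhibitor of NF-kappa-B (-0.73), were lower after methamphetamine than after amphetamine at 1.25 mg/kg in the PFC. Between regions in naive saline rats Anxa1, the anti-inflammatory annexin, was higher in striatum by 0.97, Sdc4 by 0.45, Txnip by 0.41, Errfi1 by 0.40 and Rhob by 0.34, and Dusp1 was lower, at -0.60. Anxa1 passed over each saline set, at 0.97 in both, and Sdc4 over Samples 1-3, at 0.46. In pretreated saline rats Anxa1 was higher by 0.65, and Hsd11b1 (-0.58) and Glul (-0.44) were lower. Each of these had an adjusted p under 0.05 in limma. Of all genes, 40.4% passed between regions in naive and 27.0% in pretreated saline rats, and 7.07% between amphetamine doses in the PFC. The amphetamine doses differ in BioB level, as do methamphetamine and the other compounds at 5 mg/kg in naive rats. That level cannot be told apart from dose or compound.

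Correlations among the members were mostly higher in the striatum than in the PFC. Over deviations of each array from its group mean, which takes the group differences out, the 36 pairs of members had a median Pearson r of 0.526 in the striatum (0.048 to 0.823, 36 of 36 above 0, 32 arrays) and 0.306 in the PFC (-0.342 to 0.821, 29 of 36 above 0, 31 arrays). Sgk1 and Ddit4 were the closest pair, at 0.82 in each region. Ddit4 with Tsc22d3 had 0.79 in the striatum and 0.44 in the PFC, and Ddit4 with Mt2A 0.73 and 0.60. Angptl4 stood farthest from the rest in the PFC, at -0.34 with Klf9 and 0.36 with Mt2A as its extremes. The points share arrays, hence scaling and RNA quality, and these values are a description. Deviations from group means also keep the spread within a group. In the striatum that spread was widest in pretreated methamphetamine for all members but Klf15 and Bcl6 (SD 1.10 for Mt2A and 0.98 for Sgk1). For Klf15 (SD 0.42) and Bcl6 (SD 0.57) it was widest in naive methamphetamine 1.25 mg/kg. That group holds the array of cortical profile, which is among the 32 arrays. The weight of either group in the striatal values, and in the lists of most similar genes below, was not tested.

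**Figure D4:**
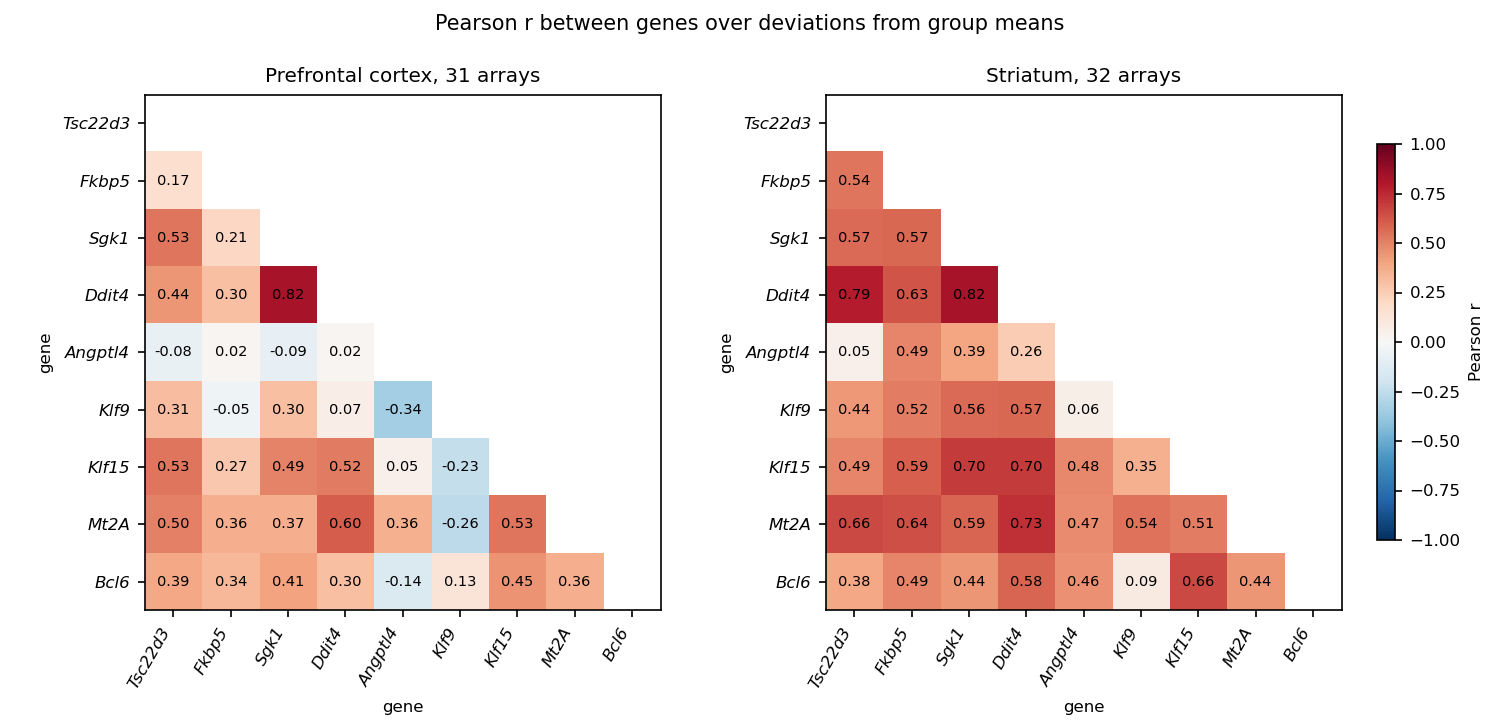
Pearson r between each pair of measured members over deviations from group means, for 31 PFC arrays and 32 striatal arrays, with the colour scale from -1 to 1. Sgk1 and Ddit4 are at 0.82 in both panels, and the PFC panel holds the values below 0, 7 in all, each of them with Angptl4 or Klf9.

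Across all 8241 genes above the filter in both regions, Pdk4 followed the members most often. It was the gene most like Ddit4 (r of 0.85 in the PFC and 0.90 in the striatum), Sgk1 (0.83 and 0.86) and Klf15 (0.68 and 0.75), ranked by the lower of the regional values, and it was next after the chaperone-related Cdc37l1 (0.66 and 0.64) for Tsc22d3. Next came Sgk1 and Ddit4 for each other, then Errfi1 for Sgk1 (0.70 and 0.77) and Arrdc3 for Ddit4 (0.71 and 0.77). Klf15 had Gpd1 (0.61 and 0.64) and Cd83 (0.64 and 0.60) after Pdk4, and Tsc22d3 had Gpatch4 (0.62 and 0.65). Fkbp5 was most like Slc25a13 (0.55 and 0.57), Sult1a1 (0.55 and 0.76) and Aff1 (0.53 and 0.66). Mt2A was most like Atp6v0e1 (0.75 and 0.78), the small heat shock protein Cryab (0.73 and 0.73) and Gpatch4 (0.70 and 0.85). For Angptl4 the nearest were Ctsl, cathepsin L, Plat, tissue plasminogen activator, and Yipf3, for Klf9 Prkar1a, Tsc22d1 and Tapt1, and for Bcl6 Stk39, Fhl2 and Nedd9, all with r from 0.51 to 0.70 in the PFC and 0.55 to 0.63 in the striatum.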

How the data were processed

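Gene expression was measured on 63 Affymetrix rat arrays of biotin-labelled RNA from dissected tissue. The authors deposited linear MAS5 signal intensities (MAS5 per the submitters' processing notes, version not given in the sources used here), with a 2% trimmed mean of 500.1 to 500.2 per array, so each array had been scaled to a common mean. Scaling of this kind leaves intensity-dependent differences between arrays in place. The median deposited intensity was 120 to 156, and 18232 values under 1 were set to 1 before taking log2. Arrays give no count depth, and their number limits the precision.

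The platform annotation gave 1 symbol to 20832 of 31099 probe sets, several to 436 and none to 9831. Each of 14218 genes was read from its brightest probe set by mean log2 signal. Per region, the lowest 40% of genes were left out, 8530 were tested in limma 3.58.1 (R 4.3.3) with 1 mean per group, all arrays of the region and an intensity trend, and calls were made at a Benjamini-Hochberg adjusted p under 0.05 over all of these. The tests of regions used all 63 arrays, and the comparisons within 1 BioB level had separate means for naive saline Samples 1-3 and 4-5. The fit was also run on simulated independent arrays, with the same spread of a gene in every group and no BioB split or difference between saline sets. That run cannot speak to such features of the real arrays. Replicate arrays correlated at 0.931 to 0.958.

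The members, gene lists and comparisons were chosen with earlier results of these data known. The rule covered all members in every comparison, given by name or by counts, ranges and plots, with every gene of the pathway lists past the threshold, a few fixed ones, and the 3 genes most like each member. The labels do not say that equal Sample numbers share a rat, and arrays of equal number did not all deviate together, so the arrays were treated as independent. Within the pretreated PFC, though, arrays of equal number in different groups deviated together in part. Their median r was 0.194, with 12 of 18 over 0.1, against -0.070 and 3 of 36 for other numbers. Equal numbers had a median r of -0.019 in the naive PFC, -0.025 in the naive striatum and 0.027 in the pretreated striatum. Between regions, deviations of arrays of equal treatment and number had a median r of 0.297 in naive and 0.163 in pretreated rats. For other numbers it was -0.087 and -0.119. The main tests, within and between regions, leave out any such pairing. Alternatives were quantile normalization, an added constant (21.1 in the PFC, 22.8 in the striatum) in place of the floor, no filter or a 60% filter, all probe sets, no intensity trend, only 1 cohort in the fit, the Sample number or BioB level as a block, a block shared by the regions (chosen after seeing the data), leaving out the array of cortical profile, and leaving out each array in turn. Zbtb16 was not analysed here, since no probe set carries its symbol in the annotation used.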

Additional observations from a re-analysis of the deposited data

Results flagged for a closer look

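The Mt2A effect in the PFC differed between the naive groups compared with saline Samples 4-5 and those compared with Samples 1-3, by -1.90 on the log2 scale in a test of the difference itself. The saline sets alone differed by 1.19 for Mt2A in the PFC, and that difference is part of the -1.90. No other member passed that test, which compares different drugs and doses as well as different saline arrays. The blood marker Hbb passed it in the PFC too, at 2.99 (limma adjusted p = 0.00298). Its part in the Mt2A difference was not tested.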

How the results depend on the processing

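The counts of members that passed depended on the arrays and settings used, and these are given as passing members, with the value reported above in brackets. The shares of all genes under each setting, and in the runs that left out an array, were not set beside these counts. A change in a count is therefore no result about the members. With the replicate block, which uses Sample numbers that do not pair the arrays throughout, 4 (0) passed in the naive PFC mean, 1 (0) in the pretreated PFC mean, 16 (1) over single groups and 4 (2) over compound pairs in the PFC. In the striatum the replicate block gave 2 (0) in the naive mean, 2 (0) in the pretreated mean, 0 (1) against Samples 1-3, 0 (1) between saline sets and 7 (4) over single groups. With only 1 cohort in the fit the PFC gave 2 (0) in the pretreated mean, 2 (4) against Samples 1-3, 3 (1) over single groups, 0 (2) over pairs and 1 (3) between doses, and the striatum 2 (0) in the pretreated mean, 2 (1) between saline sets and 1 (4) over single groups. The 60% filter gave 0 (2) over PFC pairs, 1 (0) in the pretreated striatal mean and 2 (1) against Samples 1-3 there, and no filter gave 1 (3) between PFC doses and 0 (1) against striatal Samples 1-3. That last count was also 0 with all probe sets, without the trend and without the array of cortical profile, and 2 after quantile normalization, which called 1 (0) striatal pair. Without the array of cortical profile the striatum gave 4 (0) in the pretreated mean, 3 (1) between saline sets and 1 (0) over pairs. Between regions, a replicate block shared by the PFC and striatal arrays of equal treatment and Sample number, chosen after seeing the data, gave 6 (5), Sgk1 in naive rats being added at 0.42 (limma adjusted p = 0.0465). Deviations of such arrays correlated above 0.1 in 14 of 19 naive and 11 of 12 pretreated pairs, and 12 of 19 and 11 of 12 striatal arrays correlated best with the PFC array of their own number. The cause of these changes was not tested.

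Leaving out 1 array at a time gave 0 to 4 between PFC doses, 0 to 4 over single groups in the PFC and 0 to 10 in the striatum, 0 to 4 between saline sets in the PFC and 0 to 0 in the striatum, 0 to 5 and 0 to 3 against Samples 1-3, 0 to 1 in the naive PFC mean, 0 to 1 between cohorts in the striatum, 0 to 7 in the pretreated striatal mean, 1 to 2 and 0 to 8 over pairs, and 4 to 5 between regions. Directions turned in the naive mean for members near 0. The replicate block gave 0.22 for Angptl4 and 0.19 for Ddit4 in the PFC, and 0.18 for Ddit4 and 0.30 for Mt2A in the striatum, and quantile normalization -0.0463 for Klf9 in the PFC. Leaving out arrays gave -0.124 to 0.0905 for Angptl4, -0.0602 to 0.0916 for Ddit4 and -0.0451 to 0.0483 for Klf9 in the PFC, and -0.113 to 0.0856 for Ddit4, -0.0215 to 0.0861 for Klf9 and -0.169 to 0.135 for Mt2A in the striatum.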
